A study of Canis lupus familiaris with 2 samples.

Results

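Many of the inherited retinal atrophies of dogs have been traced to single genes, and 10 of these genes are described here by the cell class in which their RNA was found. They are *PRCD*, *FAM161A*, *TTC8*, *CCDC66*, *STK38L*, *MAP9*, *NECAP1*, *ADAM9*, *MERTK* and *SLC4A3*. They were taken by name, and each of the 10 has 1 row in the counts of either dog. The counts list 34981 gene names in N350 and 19930 in N354, and 15236 names occur in both. The 2 samples, called N350 and N354, are punches of neuroretina, each from 1 male dog of normal or wild-type genotype at 40 weeks of age. The tissue was treated with trypsin before dissociation, and the RNA of each cell was tagged within a droplet by a unique molecular identifier (UMI), which lets copies made by amplification be counted as 1 molecule. No affected dog is part of these data, so the comparisons are between cell classes of normal retina. Each dog gave 1 library, and the libraries were counted on different gene annotations. A dog, its library and its annotation cannot be told apart.

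In the rod and cone photoreceptors, light is caught in an outer segment, a stack of membrane discs built on a modified cilium. Proteins reach the outer segment through this cilium, and its tips are shed and engulfed each day by the retinal pigment epithelium, a layer outside the neuroretina. Signals pass from photoreceptors to bipolar cells under the control of horizontal cells, and from bipolar cells to ganglion cells under that of amacrine cells. Müller glia span the whole thickness of the retina and support its neurons. In most progressive retinal atrophies of dogs rods are lost first and cones later, whereas in cone-rod dystrophies the cones are affected early.

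Cells were assigned by their UMIs of known marker genes. Cells with at least 200 genes numbered 8895 in N350 and 4387 in N354, and their median depth was 1298 and 1204 UMIs. Of these, 7683 and 4083 were assigned to 1 class. The classes held, in N350 and N354, 5331 and 2977 rods, 283 and 186 cones, 323 and 266 bipolar cells, 234 and 32 amacrine cells, 1287 and 565 Müller glia and 76 and 38 astrocytes. Horizontal cells numbered 89 and 13, vascular cells 33 and 2, microglia 11 and 4, and ganglion cells 16 and 0. Some gates took precedence. Cells that passed the horizontal gate were not counted as amacrine, and those that passed the microglial or vascular gate not as astrocytes. Cells that passed the astrocyte, microglial or vascular gate were not counted as Müller glia, and ganglion cells had to pass no other gate. Cells that still met several classes, 225 and 118, were left out. This stands in for the removal of doublets, but not between classes joined by such a precedence. With marker minimums 20% higher, 236 rods and 17 astrocytes would have left their class in N350, and 23 and 6 in N354. Summed over the class, the cells gated as astrocytes had UMIs of all 4 astrocyte markers, at 14.3 and 20.9 UMIs per 10000. In the same sums all 6 Müller markers had UMIs, at 89.4 and 76.8, against 177 and 209 in Müller glia. Markers of retinal pigment epithelium had 41 and 8 UMIs over all cells of each dog, and 0 cells held 2 of them.

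A gene's level in a class is the sum of its UMIs over that class in 1 dog, divided by the sum for all genes and multiplied to UMIs per 10000. Brackets after a level, ratio or share hold exact 95% intervals, which allow for counting error alone and leave out how dogs differ. Cells had a median depth of 1057 and 1012 in rods, 4906 and 2901 in cones, 2252 and 2583 in bipolar cells, 6896 and 6481 in amacrine cells, 14473 and 14190 in horizontal cells and 5112 and 5609 UMIs in Müller glia.

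By level, *PRCD*, *FAM161A*, *TTC8*, *CCDC66* and *STK38L* were highest in rods in both dogs, among the classes with at least 20 cells. For *TTC8* the intervals of cones, and for *STK38L* those of astrocytes, overlapped the intervals of rods in both dogs. *ADAM9* had nearly the same level in rods, cones and bipolar cells. *MAP9* was highest in cones and *NECAP1* in amacrine cells. For *NECAP1* the interval of amacrine cells overlapped those of rods, cones and bipolar cells in N354. *MERTK* was found in Müller glia, in the cells gated as astrocytes and, with few UMIs, in vascular cells of N350, and hardly in any neuron. The cells gated as astrocytes or vascular cells also held Müller markers. *SLC4A3* was highest in horizontal cells, a class that passed the minimum of 20 cells in N350 only.

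**Figure D1:**
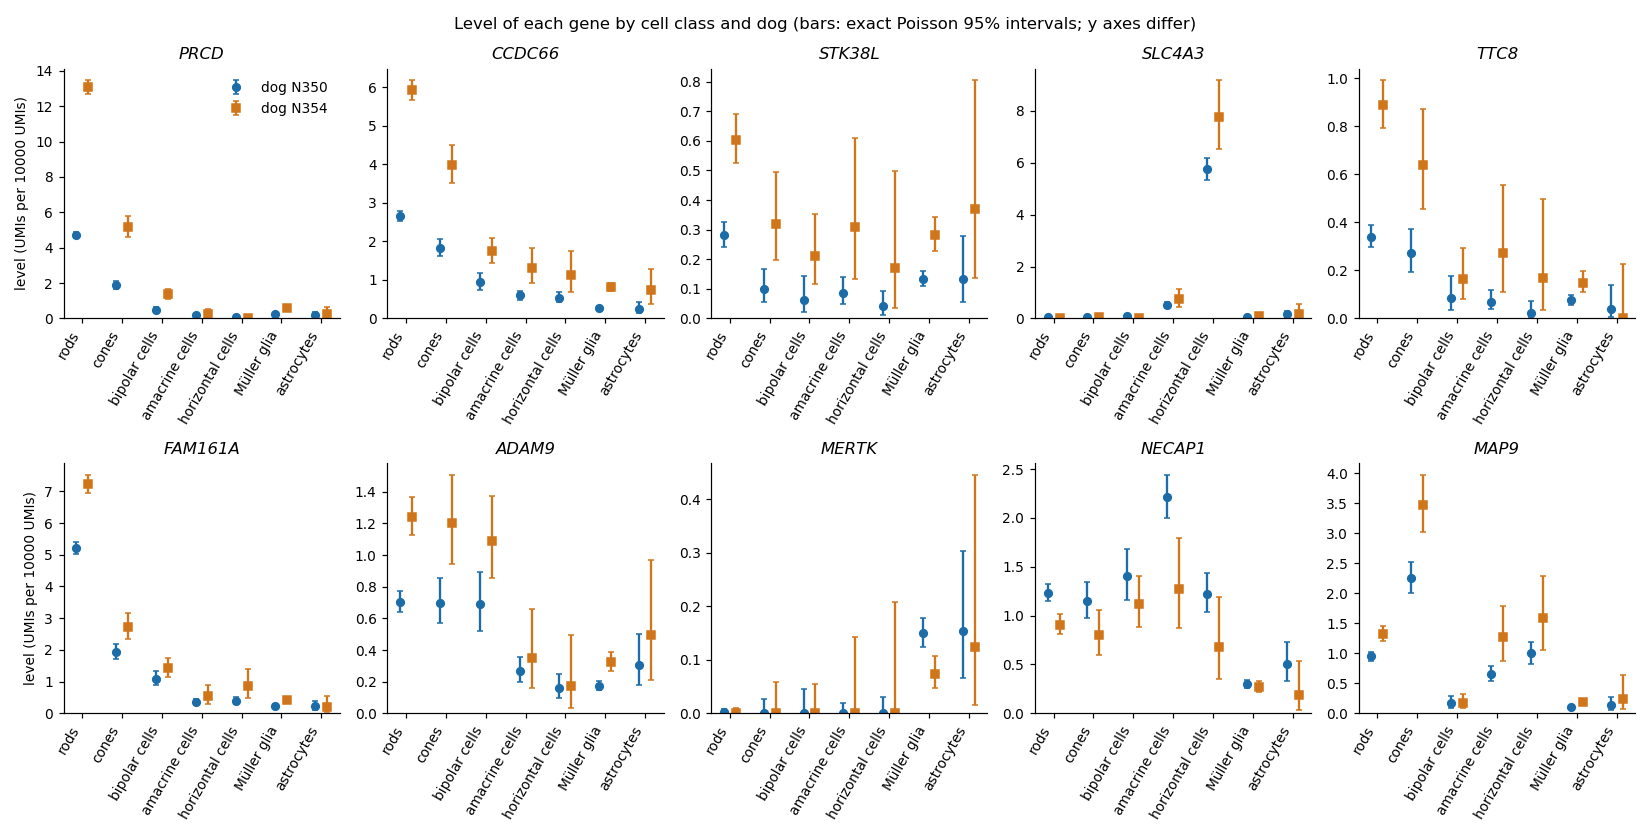
Level of the 10 genes (UMIs per 10000 UMIs, 1 panel per gene, y axes differ) in 7 cell classes of dogs N350 (circles) and N354 (squares), with exact Poisson 95% intervals. *PRCD* sits at 4.73 and 13.1 in rods and under 0.6 in Müller glia, *MAP9* at 2.25 and 3.48 in cones, and *SLC4A3* at 5.74 and 7.76 in horizontal cells.

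To test these differences with dogs and not cells as replicates, UMIs were summed per class and dog and compared with edgeR's quasi-likelihood test. The dog was a block, and p-values were adjusted by the Benjamini-Hochberg method over 11993 genes. In rods over Müller glia, 9 of the 10 genes passed, where 57.4% of all genes tested did. Of these, 7 were higher and 2 lower, where 25.6% of all genes were higher and 31.8% lower. The higher ones were *PRCD*, *FAM161A*, *MAP9*, *CCDC66*, *TTC8*, *ADAM9* and *NECAP1*, with log2 fold changes from 3.84 for *PRCD* to 1.39 for *NECAP1*. *MERTK* and *SLC4A3* were the lower ones. The median log2 fold change of the 10 genes was 1.65, against -0.05 over all genes. Scaled to library totals in place of the TMM method, the split of all genes called went from 3068 higher and 3812 lower to 4709 and 2969, and their median from -0.05 to 0.43. With no block for the dog, 4 of the 10 genes passed, and 1873 of all genes in place of 6880.

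In cones over rods, *MAP9* was higher and *PRCD*, *FAM161A* and *STK38L* were lower, 1 and 3 of the 10 genes, where 10.2% of all genes were higher, 8.88% lower and 19.1% passed in either direction. The median of the 10 was -0.36 on the log2 scale and that of all genes -0.20. With DESeq2, the split of all genes called changed from 1228 higher and 1065 lower to 1181 and 565, and *STK38L* was no longer called. Without the block 0 of the 10 passed, with 227 of all genes in place of 2293.

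In rods over inner neurons, the mean of bipolar and amacrine cells, *PRCD*, *FAM161A*, *TTC8*, *CCDC66*, *STK38L*, *MAP9* and *ADAM9* were higher and *SLC4A3* was lower. These are 7 and 1 of the 10 genes, where 23.2% of all genes were higher, 21.2% lower and 44.4% passed in either direction. The median was 1.70 for the 10 genes and 0.08 for all. DESeq2 gave 1699 genes higher and 2578 lower, where edgeR gave 2785 and 2541, and it called the same number of the 10 genes in each direction. Without the block 3 of the 10 passed, with 1381 of all genes in place of 5326. In inner neurons over Müller glia, *NECAP1*, *MAP9*, *FAM161A* and *CCDC66* were higher and *MERTK* and *STK38L* lower, 4 and 2 of the 10, where 17.3% of all genes were higher, 25.2% lower and 42.4% passed in either direction. Library totals turned the split of all genes from 2072 higher and 3018 lower to 4806 and 1870 and their median from -0.07 to 0.58, and *STK38L* was then not called. Without the block 2 of the 10 passed, with 1374 of all genes in place of 5090. With classes of at least 10 cells, which adds horizontal cells, 3 of the 10 were higher and 4 lower.

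**Figure D2:**
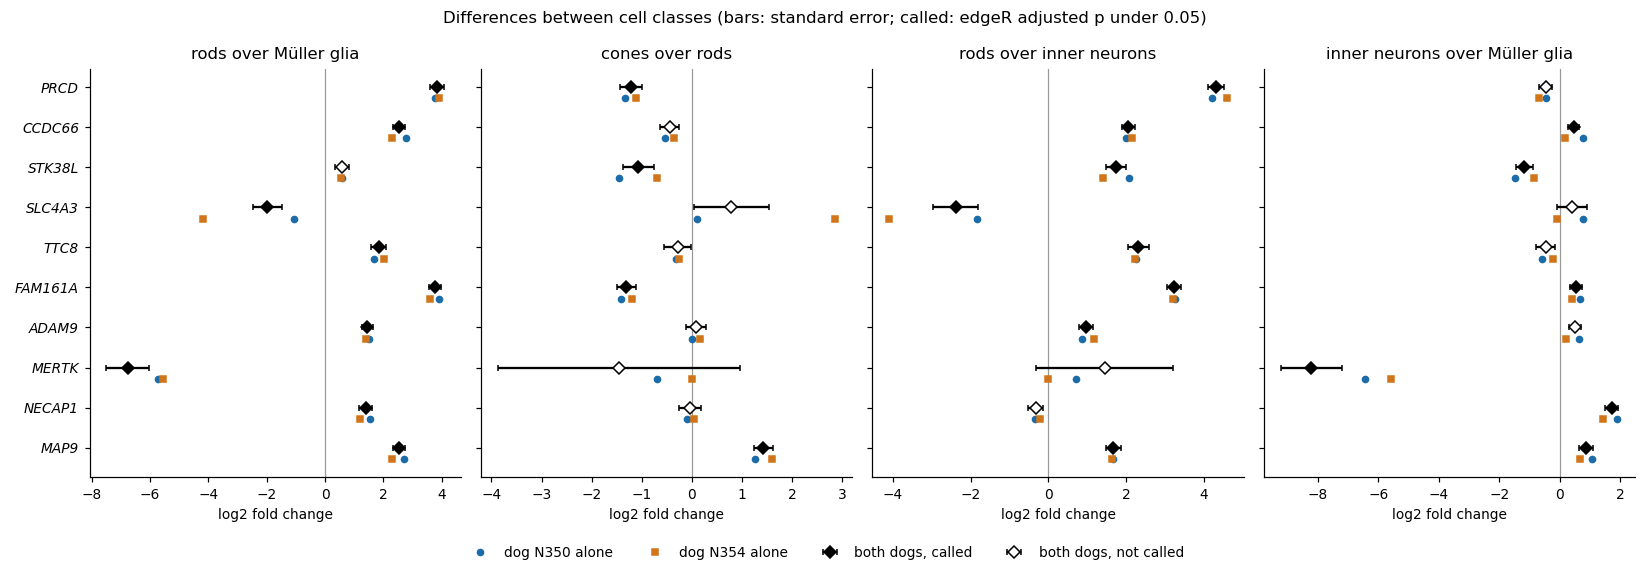
Log2 fold change of the 10 genes in 4 comparisons of cell classes. Diamonds are edgeR's estimate over both dogs, filled where the adjusted p was under 0.05, with a standard error derived from its F statistic. Circles and squares below them are the log2 differences in N350 and N354 alone. In rods over Müller glia *PRCD* lies at 3.84 with 3.76 and 3.92 in the single dogs, and *MERTK* and *SLC4A3* lie to the left of 0.

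*PRCD* encodes a small membrane protein of the photoreceptor discs and is the gene of progressive rod-cone degeneration, which occurs in many breeds. Rods of N350 and N354 had levels of 4.73 (4.57 to 4.90) and 13.1 (12.7 to 13.5), from 3056 and 4599 UMIs. In cones it was 1.86 (1.64 to 2.10) and 5.17 (4.62 to 5.77), and in bipolar cells 0.480 (0.342 to 0.657) and 1.38 (1.11 to 1.69). Müller glia had 0.248 (0.215 to 0.284) and 0.588 (0.510 to 0.675), amacrine cells 0.168 (0.114 to 0.238) and 0.270 (0.109 to 0.557). Rods were thus above every other class of their own dog with no overlap of intervals. The rod level was 19.1 (16.6 to 22.1) and 22.2 (19.3 to 25.7) times that of Müller glia, and edgeR gave a log2 fold change of 3.84 (SE 0.24, adjusted p = 9.98e-10). Cones held 0.393 (0.345 to 0.447) and 0.396 (0.352 to 0.443) times the rod level, a log2 fold change of -1.22 (SE 0.22, adjusted p = 0.000510). The ratio of cones to rods was nearly equal in the dogs although the levels themselves differed 2.76-fold. At least 1 UMI was found in 40.2% and 72.3% of rods, and in 37.0% (35.2 to 38.8) and 72.4% (70.0 to 74.6) of those with at least 1000 UMIs once thinned to 1000. In Müller glia, which are deeper, the shares were 12.9% and 18.6% as counted and 3.26% (2.33 to 4.43) and 5.04% (3.32 to 7.30) after thinning.

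Rod RNA is found in every class. The summed level of *GNGT1*, *GNAT1* and *SAG*, which encode a transducin subunit each and rod arrestin, was 219 and 435 in rods and from 3.51 to 21.0 in the other classes with at least 10 cells. If these UMIs came with other rod RNA in the same proportions, the *PRCD* level in Müller glia would be 0.247 in N350 and 0.608 in N354, which lies within the measured intervals. In amacrine cells it would be 0.15 and 0.219 and in astrocytes 0.193 and 0.105, again within the intervals. In cones the carried level would be 0.383 and 0.632, and in bipolar cells 0.329 and 0.359, both below the measured intervals. After this RNA was subtracted from the sums, *PRCD* was higher in inner neurons than in Müller glia, at a log2 fold change of 5.55 (adjusted p = 6.46e-05 from edgeR), where the unsubtracted value was -0.47 (adjusted p = 0.103). The size of the first value rests on the few UMIs left in Müller glia and is no measure of the difference. The direction for *PRCD* between inner neurons and Müller glia therefore depends on this step, and its part in the low levels was not tested further.

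**Figure D3:**
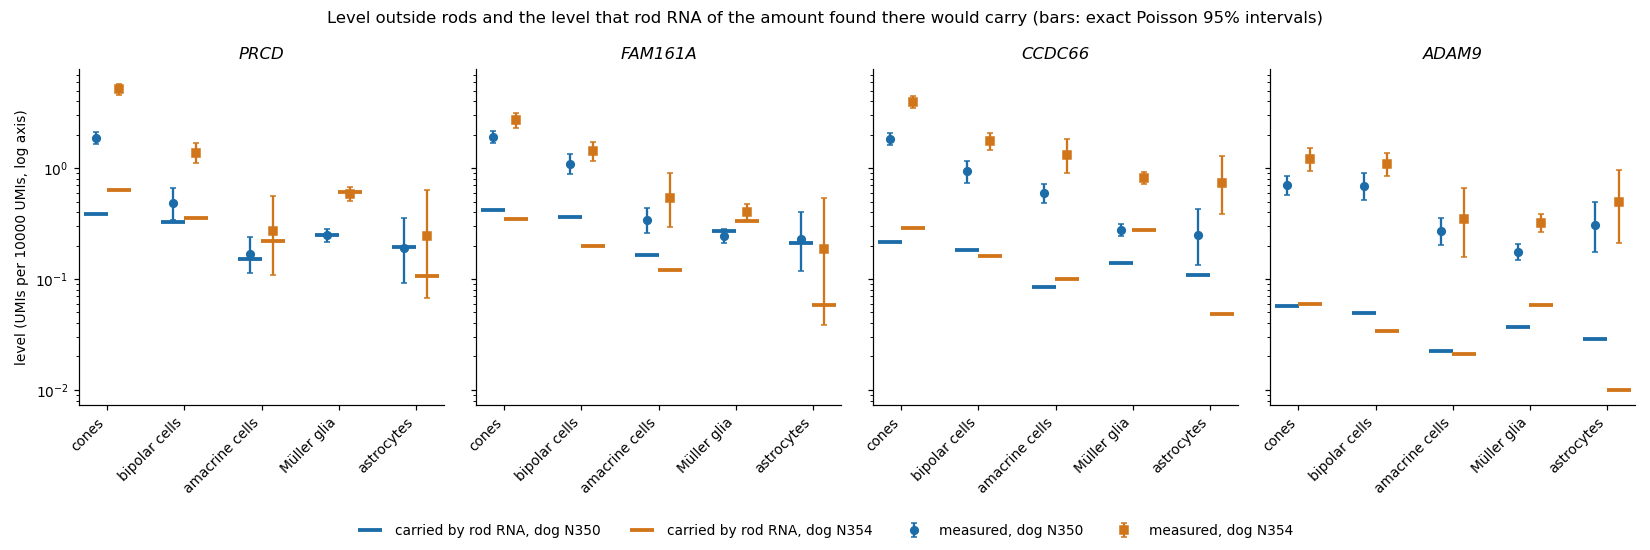
Level of *PRCD*, *FAM161A*, *CCDC66* and *ADAM9* (UMIs per 10000 UMIs, log axis) in 5 classes other than rods, measured with exact Poisson 95% intervals (points), and the level that rod RNA would carry if all *GNGT1*, *GNAT1* and *SAG* UMIs of the class came from rods (dashes). For *PRCD* in Müller glia the dash lies on the measured point, 0.247 beside 0.248 in N350, whereas for *ADAM9* all dashes lie under the intervals.

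*FAM161A* encodes a protein of the photoreceptor connecting cilium that binds microtubules, and it is a gene of progressive retinal atrophy in Tibetan Spaniels and Tibetan Terriers. In rods its level was 5.21 (5.04 to 5.39) and 7.22 (6.94 to 7.51), from 3366 and 2539 UMIs. It was 1.93 (1.70 to 2.17) and 2.72 (2.33 to 3.16) in cones, 1.10 (0.880 to 1.35) and 1.42 (1.15 to 1.74) in bipolar cells, and 0.244 (0.211 to 0.2801) and 0.404 (0.339 to 0.477) in Müller glia. The order rods, cones, bipolar cells was the same in both dogs, with no overlap of neighbouring intervals. Cones held 0.370 (0.325 to 0.418) and 0.377 (0.321 to 0.441) times the rod level (log2 fold change -1.31, SE 0.19, adjusted p = 7.56e-05 from edgeR), and rods exceeded inner neurons by 3.23 (SE 0.17, adjusted p = 2.25e-10). Rod RNA would carry 0.272 and 0.336 in Müller glia, within the measured interval in N350 and just under it in N354. In bipolar cells it would carry 0.362 and 0.198, below both intervals. The call for inner neurons over Müller glia, 0.53 (SE 0.19, adjusted p = 0.0328 from edgeR), was lost in several alternatives. Among them were doubled marker minimums, keeping cells of several classes and no block for the dog.

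*TTC8*, also named BBS8, encodes a subunit of the BBSome, a protein coat that carries membrane proteins through cilia, and it is a gene of progressive retinal atrophy in Golden Retrievers. Its RNA was scarce. Rods had levels of 0.341 (0.297 to 0.389) and 0.887 (0.791 to 0.991), and cones 0.271 (0.192 to 0.372) and 0.641 (0.458 to 0.872). Bipolar cells had 0.0862 (0.0347 to 0.178) and 0.165 (0.0821 to 0.294), and Müller glia 0.0753 (0.0577 to 0.0965) and 0.149 (0.111 to 0.196). Photoreceptors were thus above bipolar cells and Müller glia in either dog. The difference between cones and rods was not past the threshold (-0.29, SE 0.27, adjusted p = 0.523), and their ratio was 0.796 (0.548 to 1.13) and 0.722 (0.506 to 1.01). Rods exceeded Müller glia by a log2 fold change of 1.84 (SE 0.26, adjusted p = 1.06e-05 from edgeR) and inner neurons by 2.31 (SE 0.27, adjusted p = 1.98e-06).

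Of 8 further genes of the BBSome and its recruiter ARL6, 5 could be tested. All 5 were higher in rods than in inner neurons, as were 23.2% of all genes, with *BBS9* at 3.40, *ARL6* at 2.80, *BBS5* at 2.33, *BBS7* at 1.72 and *BBIP1* at 0.88 on the log2 scale. Over Müller glia, where 25.6% of all genes were higher in rods and 31.8% lower, 4 were higher and *BBIP1* was lower, at -0.63 (SE 0.19, adjusted p = 0.0084 from edgeR). In cones over rods *BBS7* and *BBS9* were lower, at -1.43 and -1.17, against 8.88% of all genes, and the other 3 did not pass, as *TTC8* did not.

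*CCDC66* encodes a protein of cilia and centrosomes and is a gene of progressive retinal atrophy in Schapendoes dogs. Its level followed the order rods, cones, bipolar cells in both dogs. It was 2.65 (2.53 to 2.78) and 5.93 (5.68 to 6.19) in rods, 1.83 (1.61 to 2.06) and 3.99 (3.51 to 4.52) in cones and 0.936 (0.738 to 1.17) and 1.75 (1.45 to 2.10) in bipolar cells. Müller glia had 0.277 (0.242 to 0.315) and 0.816 (0.723 to 0.918), and amacrine cells 0.595 (0.489 to 0.717) and 1.31 (0.910 to 1.84). By counting error alone the cone level was below that of rods in each dog, at 0.688 (0.601 to 0.785) and 0.673 (0.588 to 0.768) times. Over both dogs edgeR gave -0.44 (SE 0.19, adjusted p = 0.123), which missed the threshold. It passed when cells of several classes were kept (-0.59) and with no filter on low counts (-0.57). Neurons, Müller glia and astrocytes of either dog had more *CCDC66* than rod RNA would carry, which in cones was 0.215 and 0.287. Inner neurons exceeded Müller glia by 0.47 (SE 0.18, adjusted p = 0.0468 from edgeR), a call lost in several alternatives. Among them were cells of at most 10% mitochondrial UMIs, keeping cells of several classes and no block for the dog.

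*STK38L* encodes a kinase of the NDR family, which is activated by MOB proteins, and it is the gene of early retinal degeneration in Norwegian Elkhounds. The gene had only 182 and 212 UMIs in rods, a level of 0.282 (0.242 to 0.326) and 0.603 (0.524 to 0.690). It was 0.132 (0.109 to 0.1596) and 0.281 (0.227 to 0.343) in Müller glia, and 0.0999 (0.0546 to 0.168) and 0.320 (0.196 to 0.495) in cones. Amacrine cells had 0.0865 (0.0495 to 0.141) and 0.309 (0.133 to 0.609). The cells gated as astrocytes had 0.135 (0.0541 to 0.277) and 0.370 (0.136 to 0.805), from 7 and 6 UMIs. The 33 vascular cells of N350 had 0.220 (0.0714 to 0.513), from 5 UMIs. The intervals of astrocytes and vascular cells overlapped those of rods of the same dog. Cones were lower than rods (-1.07, SE 0.30, adjusted p = 0.0187 from edgeR), and rods exceeded inner neurons by 1.74 (SE 0.26, adjusted p = 3.38e-05). Over Müller glia rods had a log2 fold change of 0.57 (SE 0.24, adjusted p = 0.0521), just short of the threshold, although the ratio within a dog was 2.13 (1.67 to 2.73) and 2.15 (1.68 to 2.76). This difference passed when library totals replaced TMM scaling (1.07), with no filter on low counts (0.69) and when cells of several classes were kept (0.61). In 11 microglia of N350 the level was 1.86 (0.926 to 3.32), resting on 11 UMIs in 4 of the cells, 5 of them in 1 cell. Summed over the class, these cells held Müller markers at 100.4 UMIs per 10000 beside 97.5 of microglial markers. The medians over the cells were 62.8 for Müller markers and 114.4 for microglial markers. The 4 microglia of N354 were too few to give a level. *STK38*, the close relative, did not pass in rods over Müller glia (-0.29, SE 0.23, adjusted p = 0.30) and had 0.211 and 0.563 in rods and 0.189 and 0.453 in Müller glia. Like *STK38L*, it was lower in inner neurons than in Müller glia (-0.86, SE 0.23, adjusted p = 0.00631).

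*MAP9* encodes a protein that binds and stabilizes microtubules, and in dogs a variant of it is associated with the age at onset of the cone-rod dystrophy linked to *RPGRIP1*. It was the only one of the 10 genes that was higher in cones than in rods by the test. In cones the level was 2.25 (2.01 to 2.52) and 3.48 (3.03 to 3.97), and in rods 0.949 (0.876 to 1.03) and 1.33 (1.21 to 1.45). Cones thus held 2.37 (2.07 to 2.72) and 2.62 (2.22 to 3.08) times the rod level, and edgeR gave 1.43 (SE 0.19, adjusted p = 2.28e-05). Among inner neurons the gene set classes apart. Horizontal cells had 0.997 (0.829 to 1.19) and 1.59 (1.05 to 2.29) and amacrine cells 0.654 (0.543 to 0.782) and 1.27 (0.877 to 1.79). Bipolar cells had 0.172 (0.0943 to 0.289) and 0.180 (0.0928 to 0.314), close to the 0.101 (0.0802 to 0.125) and 0.181 (0.139 to 0.233) of Müller glia. The amacrine level was 3.80 (2.18 to 7.15) and 7.10 (3.57 to 15.1) times that of bipolar cells. After thinning to 1000 UMIs, 22.1% (17.1 to 27.9) and 29.1% (21.0 to 38.2) of cones held a UMI, against 9.33% (8.30 to 10.4) and 12.1% (10.5 to 13.9) of rods and 1.34% and 1.55% of Müller glia. As counted these shares were 55.1% and 46.2% in cones, 10.0% and 14.0% in rods and 5.67% and 8.32% in Müller glia.

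*NECAP1* encodes a protein of clathrin-coated vesicles that takes part in endocytosis at synapses, and it is a gene of progressive retinal atrophy in Giant Schnauzers. It was spread over all neurons and was low in glia. Amacrine cells had 2.21 (2.003 to 2.44) and 1.27 (0.877 to 1.79), bipolar cells 1.40 (1.16 to 1.69) and 1.12 (0.883 to 1.41), rods 1.23 (1.15 to 1.32) and 0.907 (0.810 to 1.01), and cones 1.15 (0.978 to 1.34) and 0.801 (0.594 to 1.06). Müller glia had 0.300 (0.264 to 0.340) and 0.266 (0.214 to 0.327). Amacrine cells exceeded bipolar cells 1.58-fold (1.28 to 1.96) in N350, whereas in N354 the ratio of 1.14 (0.731 to 1.73) did not separate them. Inner neurons were higher than Müller glia by 1.72 (SE 0.21, adjusted p = 3.28e-06 from edgeR) and rods by 1.39 (SE 0.22, adjusted p = 3.73e-05). Neither cones over rods (-0.04, SE 0.23, adjusted p = 0.944) nor rods over inner neurons (-0.33, SE 0.19, adjusted p = 0.182) passed. With library totals the last of these did, at -0.50. The relative *NECAP2* was lower in cones than in rods (-1.12, SE 0.32, adjusted p = 0.017).

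*ADAM9* encodes a metalloprotease at the cell surface and is the gene of a cone-rod dystrophy in Glen of Imaal Terriers. Rods had levels of 0.705 (0.641 to 0.773) and 1.24 (1.13 to 1.36), cones 0.699 (0.568 to 0.852) and 1.201 (0.945 to 1.51), and bipolar cells 0.690 (0.521 to 0.896) and 1.09 (0.856 to 1.37). In either dog the intervals of these 3 classes overlapped. The ratio of cones to rods was 0.992 (0.789 to 1.24) and 0.967 (0.746 to 1.24), with a log2 fold change of 0.08 (SE 0.20, adjusted p = 0.827 from edgeR). Amacrine cells had less, 0.270 (0.201 to 0.357) and 0.348 (0.159 to 0.660), and so did Müller glia, 0.175 (0.147 to 0.206) and 0.322 (0.264 to 0.388). Rods exceeded Müller glia by 1.46 (SE 0.20, adjusted p = 7.05e-06) and inner neurons by 0.96 (SE 0.18, adjusted p = 0.000360). Rod RNA would carry only 0.0490 and 0.0341 in bipolar cells. *ADAM10* and *ADAM17*, proteases of the same family, did not pass in rods over Müller glia, cones over rods or rods over inner neurons. In inner neurons over Müller glia *ADAM10* was lower (-0.72, SE 0.26, adjusted p = 0.0349) and *ADAM17* did not pass.

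*MERTK* encodes the receptor through which the pigment epithelium engulfs shed outer segments, and it has been linked to a retinopathy of Swedish Vallhunds. The layer best known for it is not part of these samples, and *RPE65* had 2 UMIs in the rods of N350 and 0 in the rods of N354. *MERTK* had 123 and 25 UMIs in Müller glia, a level of 0.149 (0.124 to 0.178) and 0.0731 (0.0473 to 0.108). The cells gated as astrocytes had 8 and 2 UMIs, a level of 0.154 (0.0664 to 0.303) and 0.123 (0.0149 to 0.445), with intervals that overlap those of Müller glia. The part of the Müller markers found in these cells was not tested. In the 33 vascular cells of N350, with 5 UMIs, the level was 0.220 (0.0714 to 0.513), and the 11 microglia had 1 UMI. These vascular cells held Müller markers at 69.9 UMIs per 10000 beside 72.0 of vascular markers, and the part of this was not tested. Over rods, cones, bipolar cells, amacrine cells and horizontal cells it had 1 UMI in N350, in a rod, and 0 in N354. In N354, where rods had 0 UMIs, the level in Müller glia was 8.57 times a floor of 3 counts in the rods. This ratio carries no interval and is not a lower limit. Rods of N350 held 0.0104 (0.000261 to 0.0589) times the level of Müller glia. In edgeR the gene was lower in rods than in Müller glia (adjusted p = 1.73e-06) and lower in inner neurons (adjusted p = 1.05e-05), with fold changes that are not given because the neurons were at or near 0. Of 4 related receptors and ligands, *AXL*, a receptor of the same family, had 0.352 and 0.673 in Müller glia, and *PROS1*, a ligand, 1.16 and 3.01. Both were lower in rods than in Müller glia, at -5.03 (SE 0.43, adjusted p = 2.6e-08) and -5.24 (SE 0.40, adjusted p = 7.0e-09). *GAS6*, the other ligand, was 0.00728 and 0.00585 in Müller glia and 0.416 and 0.270 in amacrine cells, and it was higher in inner neurons than in Müller glia (3.18, SE 0.80, adjusted p = 0.0040). *TYRO3*, the remaining receptor, had a level of 0.0328 in Müller glia of N350 and 0 in those of N354, and passed in none of the 4 comparisons.

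*SLC4A3* encodes an exchanger of chloride for bicarbonate in the plasma membrane and is a gene of progressive retinal atrophy in Golden Retrievers. Photoreceptors had hardly any of its RNA. The level was 0.0465 (0.0313 to 0.0663) and 0.00569 (0.000689 to 0.0205) in rods, from 30 and 2 UMIs, and 0.0499 (0.0201 to 0.103) and 0.0481 (0.00991 to 0.140) in cones, from 7 and 3 UMIs. Horizontal cells, in contrast, had 5.74 (5.33 to 6.18) and 7.76 (6.51 to 9.17), from 714 UMIs in 89 cells and 137 in 13 cells. The gene had a UMI in 86 of the 89 cells and in 13 of the 13. After thinning to 1000 UMIs the shares were 39.3% (29.1 to 50.3) and 61.5% (31.6 to 86.1), against 0.272% (0.118 to 0.536) and 0.0657% (0.00166 to 0.365) in rods. Amacrine cells came next among the classes with at least 20 cells, at 0.508 (0.411 to 0.622) and 0.734 (0.442 to 1.15), and the horizontal level was 11.3 (9.09 to 14.2) and 10.6 (6.52 to 18.1) times theirs. Horizontal cells exceeded Müller glia 80.2-fold (61.4 to 106) in N350 and 80.4-fold (54.6 to 121) in N354. The 16 ganglion cells of N350 had 1.43 (1.13 to 1.80), with 21 of their 74 UMIs in 1 cell.

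The 13 horizontal cells of N354 lie under the minimum of 20 cells, and the following comparison was added after the levels of *SLC4A3* had been seen. With a minimum of 10 cells, over 12055 genes, *SLC4A3* was higher in horizontal cells than in the mean of the other neurons by a log2 fold change of 6.26 (SE 0.25, adjusted p = 6.60e-14 from edgeR). The difference was 5.84 in N350 alone and 7.02 in N354 alone. *MAP9* was higher too (0.54, SE 0.19, adjusted p = 0.0335), and 6 of the 10 genes were lower, where 15.6% of all genes were higher, 14.4% lower and 30% passed in either direction. The lower ones were *PRCD* (-3.68), *TTC8* (-2.10), *ADAM9* (-1.92), *FAM161A* (-1.65), *STK38L* (-1.37) and *CCDC66* (-1.27). The *MAP9* level of horizontal cells was below that of cones and above that of bipolar cells in both dogs. Its intervals overlapped those of rods.

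*SLC4A3* was also found in amacrine cells without horizontal markers. In N350, 209 amacrine cells with 0 UMIs of horizontal markers had 0.531 (0.426 to 0.655), and 25 with at least 1 such UMI had 0.312 (0.114 to 0.679), from 6 UMIs and with overlapping intervals. In N354, 31 of the 32 amacrine cells had 0 UMIs of horizontal markers and a level of 0.705 (0.418 to 1.11). Cells assigned to no class had met either no gate or several. Of them, those with a UMI of a horizontal marker had 1.13 (0.844 to 1.47) in 129 cells of N350 and 3.03 (1.87 to 4.63) in 17 of N354. Whether these include horizontal cells was not tested. In the main comparisons *SLC4A3* was lower in rods than in inner neurons (-2.38, SE 0.58, adjusted p = 0.00287 from edgeR) and than in Müller glia (-1.98, SE 0.50, adjusted p = 0.00245). Of the inner neurons, bipolar cells had 0.0739 (0.0271 to 0.161) and 0.0299 (0.00362 to 0.108), from 6 and 2 UMIs. These intervals overlapped those of rods in both dogs, whereas the intervals of amacrine cells lay above them. The difference from Müller glia rests mostly on N354, where rods held 0.0589 (0.00685 to 0.230) times the level of Müller glia. In N350 the ratio was 0.649 (0.404 to 1.02). The call over Müller glia was lost under the study's mitochondrial limit (-1.84). *SLC4A2*, which encodes another anion exchanger, had a different pattern, with 0.240 and 0.325 in Müller glia and 0.0604 and 0.0796 in rods. *SLC4A1* had 0 UMIs in every class with at least 10 cells.

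A rod gave fewer UMIs than a cone, so the order of rods and cones depends on the unit. Per 10000 UMIs *PRCD* and *FAM161A* were lower in cones, but per cell cones held 1.61 (1.41 to 1.83) times as many UMIs of *PRCD* as rods in N350 and 1.12 (1.001 to 1.26) times in N354. For *FAM161A* the ratio per cell was 1.51 (1.33 to 1.71) and 1.07 (0.912 to 1.25). *CCDC66* went from 0.688 and 0.673 per 10000 UMIs to 2.81 (2.46 to 3.21) and 1.91 (1.67 to 2.18) per cell. *MAP9* was higher in cones in either unit, with 9.71 (8.45 to 11.1) and 7.44 (6.30 to 8.76) times the UMIs of a rod. More RNA in a cone and better recovery of its RNA cannot be told apart here. In both dogs most UMIs of *PRCD* in assigned cells were in rods, 84.3% and 88.0%, with 7.20% and 6.18% in cones. For *MAP9* rods held 45.2% and 56.7% and cones 23.3% and 26.3%, and these shares depend on how many cells of each class were recovered.

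**Figure D4:**
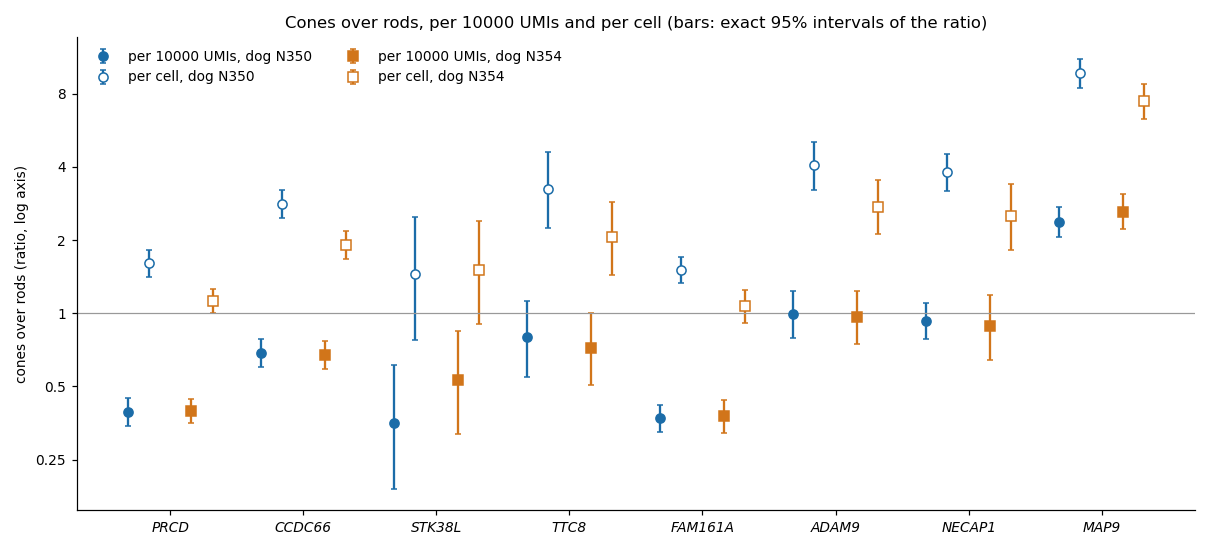
Ratio of cones to rods (log axis) for 8 genes in dogs N350 (circles) and N354 (squares), per 10000 UMIs (filled) and per cell (open), with exact 95% intervals. Per cell all ratios lie above 1, with intervals that reach below 1 for *STK38L* in both dogs and *FAM161A* in N354, whereas per 10000 UMIs those of *PRCD* (0.393 and 0.396) and *FAM161A* (0.370 and 0.377) lie below it and those of *MAP9* (2.37 and 2.62) above.

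Cones were further set apart by their opsin, a split made after the levels were seen and given as a description. Cones with at least 5 UMIs of *OPN1SW*, the short-wavelength opsin, numbered 32 in N350 and 12 in N354. Their *TTC8* level was 0.813 (0.445 to 1.36) and 1.41 (0.607 to 2.77), against 0.195 (0.125 to 0.290) and 0.564 (0.386 to 0.796) in the other cones. The intervals were apart in N350 and overlapped in N354. *FAM161A* was 2.38 (1.71 to 3.23) and 4.92 (3.27 to 7.11) in these cones and 1.86 (1.63 to 2.12) and 2.503 (2.11 to 2.95) in the others, with intervals apart in N354 only. *NECAP1* was 1.92 (1.32 to 2.69) and 1.05 (0.387 to 2.29) against 1.04 (0.869 to 1.24) and 0.775 (0.563 to 1.04), with intervals apart in N350 only. For *MAP9* the values were 2.44 (1.76 to 3.30) and 3.87 (2.42 to 5.85) against 2.23 (1.97 to 2.51) and 3.44 (2.97 to 3.95), with overlap in either dog.

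Rods also differed in their mitochondrial RNA. In rods with over 10% of UMIs on mitochondrial genes, 844 in N350 and 688 in N354, the *PRCD* level was 3.72 (3.33 to 4.14) and 11.8 (11.03 to 12.6), against 4.90 (4.71 to 5.08) and 13.4 (13.01 to 13.9) in the other rods. *CCDC66* had 2.12 (1.83 to 2.44) and 4.26 (3.81 to 4.74) against 2.74 (2.61 to 2.88) and 6.40 (6.11 to 6.71). *SLC4A3* in rods of N350 went the other way, at 0.123 (0.0612 to 0.219) against 0.0342 (0.0206 to 0.0534), from 11 and 19 UMIs. The part of mitochondrial RNA in these differences was not tested. With only cells of at most 10% mitochondrial UMIs, 9, 4 and 8 of the 10 genes passed in rods over Müller glia, cones over rods and rods over inner neurons, the same numbers as over all cells, and 5 in place of 6 in inner neurons over Müller glia.

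Between the dogs, rods of N354 had 2.76 (2.64 to 2.89) times the *PRCD* level of N350, 2.60 (2.18 to 3.11) times that of *TTC8*, 2.23 (2.09 to 2.38) times that of *CCDC66* and 2.14 (1.75 to 2.62) times that of *STK38L*. These are 4 of the 8 genes with at least 50 UMIs in rods that were over 2-fold higher in N354, where 10.5% of 8087 genes were over 2-fold higher and 24.3% over 2-fold lower. *FAM161A* (1.38), *MAP9* (1.40) and *ADAM9* (1.76) lay between 1 and 2, and *NECAP1* was lower in N354, at 0.736 (0.644 to 0.839). In Müller glia the ratio was 2.95 (2.47 to 3.53) for *CCDC66*, 2.12 (1.596 to 2.82) for *STK38L* and 0.490 (0.305 to 0.758) for *MERTK*, where 37.2% of 8849 genes differed by over 2-fold in either direction. The summed level of *GNGT1*, *GNAT1* and *SAG* in rods, at 219 and 435, moved the same way. The part of the animal, the library and the annotation in these ratios cannot be told apart. Levels of a gene were therefore compared between classes within a dog.

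**Figure D5:**
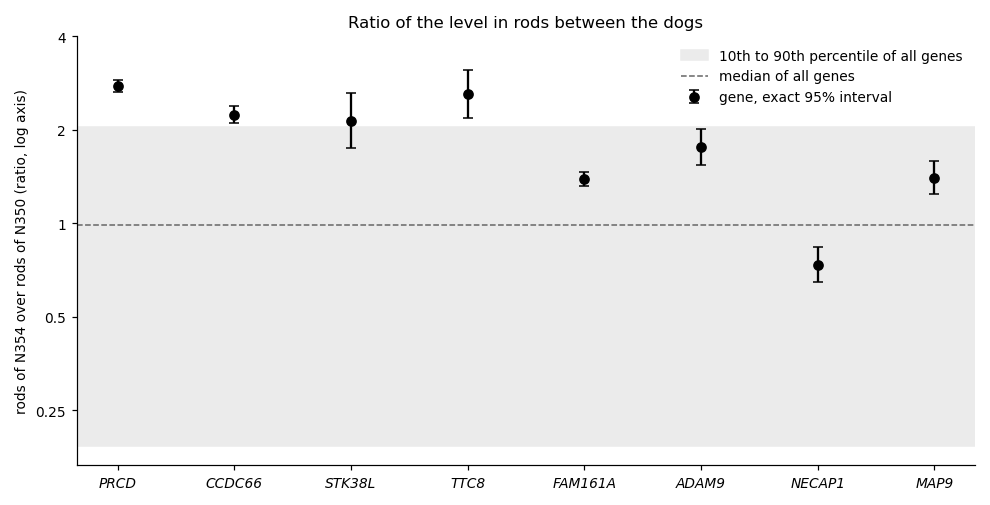
Ratio of the level in rods of N354 to that in rods of N350 (log axis) for 8 genes with exact 95% intervals, with the median of all genes (dashed line) and their 10th to 90th percentile (grey). *PRCD* lies highest at 2.76 and *NECAP1* lowest at 0.736.

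The same comparisons were made for 22 other genes of inherited retinal disease in dogs, of which 18 were tested. In rods over Müller glia 13 were higher and 3 lower, with a median log2 fold change of 2.39, where 25.6% and 31.8% of all genes were higher and lower. In rods over inner neurons 14 were higher and 0 lower in edgeR, with a median of 2.93, where 23.2% and 21.2% of all genes were. In cones over rods 2 were higher and 7 lower, with a median of -0.95, where 10.2% and 8.88% of all genes were. The 2 were *CNGA3* and *CNGB3*, which encode the channel of cones, at 9.56 and 9.09, against 1.43 for *MAP9*. The lower ones in cones included the rod genes *CNGA1* (-4.62), *PDE6A* (-4.50) and *CNGB1* (-3.22), whose differences exceeded the -1.22 of *PRCD*. *RPGRIP1*, whose dystrophy *MAP9* is associated with, was 4.37 higher in rods than in Müller glia and did not pass in cones over rods (-0.48, adjusted p = 0.25 from edgeR). *COL9A2* and *COL9A3*, genes of oculoskeletal dysplasia, were lower in rods than in Müller glia, at -5.91 and -5.22, and like *MERTK* also lower in inner neurons than in Müller glia.

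Other genes with a pattern over classes like that of each gene were sought by the Pearson correlation of log2 levels over 6 classes, with the lower value of the dogs used to rank 7965 genes. The points share their library, and with 6 classes many genes reach a high value. The leading genes were *HK2*, *RP1* and *RDH8* for *PRCD* (0.984, 0.984 and 0.983), *GLMN*, *UNC119* and *AKNA* for *FAM161A* (0.993, 0.984 and 0.972), and *XIAP*, *LAPTM4B* and *PEX5L* for *TTC8* (0.982, 0.982 and 0.965). For *CCDC66* they were *RASGRF2*, *EPHA8* and *CCDC181* (0.992, 0.986 and 0.986), for *STK38L* *NUP54*, *MAP4K4* and *GPR160* (0.899, 0.897 and 0.884), and for *MAP9* *KIF2A*, *CDS1* and *CD47* (0.967, 0.960 and 0.951). *NECAP1* was most like *MAST1*, *MEF2A* and *NSF* (0.983, 0.972 and 0.971), *ADAM9* like *YEATS2*, *NFATC3* and *STX3* (0.969, 0.969 and 0.967), and *SLC4A3* like *SELENOI* and *BZW1* (0.981 and 0.976), without horizontal cells among the classes. *MERTK* itself had under 50 UMIs in N354, and its leading genes were *SLC15A2*, *SMCO4* and *CRYBG1* (0.996, 0.995 and 0.993).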

How the data were processed

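Neuroretinal cells of 2 normal dogs were sequenced with a droplet 3' kit. UMI counts per gene and cell, not normalized, were deposited by the authors. They used canFam6 as the genome and Cell Ranger, with version 6.0.2 in the header of the counts. Libraries held 24030707 (N350) and 9711202 (N354) UMIs and shared 6 cell barcodes. Rows of 1 name were summed. *NR2E3* is not named in N354.

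Cells with at least 200 genes were kept, 8895 and 4387. The study's limit, under 5% of UMIs on names starting with MT-, was an alternative (8895 and 1369 cells), because it matches different names in each dog. A class needed at least 2 of its markers, a minimum of 3 to 10 marker UMIs and of 0.05% to 1.5% of the cell's UMIs, set after marker UMIs were seen. Sums per dog and class with at least 20 cells, 6 classes, were tested with edgeR 4.0.16 (R 4.3.3; quasi-likelihood, TMM, dog as block) over genes with at least 10 UMIs, with DESeq2 1.42.0 as an alternative. The SE beside an edgeR value is the absolute log2 fold change divided by the square root of the F statistic. The dog pairs the sums, since those of 1 dog come from 1 animal. Deviations from class means correlated at 0.553 to 0.809 between classes of a dog. With 1 sum per class and dog and the dog as a block, p-values rest on how the class differences varied between these dogs. A shift of a gene in all classes of a dog does not enter this spread. Levels have exact Poisson and shares exact binomial intervals (Python 3.11.15, scipy 1.17.1). Thinned shares leave out cells under 1000 UMIs, for example 2395 rods of N350 and 39 cones. No doublet caller was run, and no sequences of the files' build were used here. The genes and lists were chosen with earlier results of these data known, and the named genes are the 10, their fixed relatives and the 3 most like each, of which 1 is not reported here.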

Additional observations from a re-analysis of the deposited data

How the results depend on the processing

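Of 252 tests of called results of the 10 genes under alternatives, 225 kept direction and call and 27 lost the call. Of 118 of results not called, 13 gained a call in the same direction, 1 gained it in the other, 93 kept both and 11, of *ADAM9*, *NECAP1*, *MERTK*, *PRCD* and *TTC8*, changed sign without a call. In 1 dog alone, with no test, all 54 values of called results kept their direction, and 3 of 26 others changed sign. The call in the other direction is *PRCD* in inner neurons over Müller glia, 5.55 after rod RNA scaled to *GNGT1*, *GNAT1* and *SAG* was subtracted, an alternative chosen after seeing the data. The scaling planned for this step was not run. With no replicate block, 18 of the 27 calls were lost, and the genes called were 1873 in rods over Müller glia, 227 in cones over rods, 1381 in rods over inner neurons and 1374 in inner neurons over Müller glia. Under the study's mitochondrial limit 4520 genes were called in rods over Müller glia, and the other comparisons could not be fitted because 1 dog had too few cells. With a denominator of genes named in both dogs without mitochondrial genes, mean levels moved to 7.73 for *FAM161A* in rods, 3.75 for *MAP9* in cones, 0.799 for *SLC4A3* in amacrine cells and 0.179 for *MERTK* in astrocytes. A minimum of 10 cells, added after seeing the data, counts horizontal cells among the inner neurons. *SLC4A3*, at 5.74 and 7.76 in horizontal cells of N350 and N354, was then 2.19 in inner neurons over Müller glia in place of 0.40. The cause of the changes in calls was not tested. Few UMIs limit *TTC8*, *STK38L*, *MERTK* and, in rods, *SLC4A3*, and with 2 dogs the spread between animals is poorly known.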
